A study of Mus musculus with 6 samples.

Results

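The 37 genes described here encode enzymes and regulators that hold reactive oxygen species in check in the liver: the NRF2 and NRF1 sensing genes, the glutathione and thioredoxin systems, peroxiredoxins, superoxide dismutases, glutaredoxins, methionine sulfoxide reductases and the NADPH-producing pentose phosphate pathway. Members were taken by gene symbol from a table of 12366 genes, where 35 of the 37 were found. Txnrd2 and Gpx7 were not analysed here. Liver RNA came from male C57BL/6 mice on chow, aged 22 weeks and fasted for 48 h, either wild type (WT) or Acss2-/- (Acss2-KO), with 3 libraries per genotype, called here WT1, WT2, WT3, KO1, KO2 and KO3 by their replicate numbers. Acss2 makes acetyl-CoA from acetate in the cytosol and nucleus. No label says which animal a library came from, so the tests below set genotype against the spread of these 6 libraries, which may be technical. Both genotypes were fasted, and all values are from whole liver, in which fewer cells of a type and less RNA per cell cannot be told apart.

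Glutathione and thioredoxin are the main thiol reductants of the hepatocyte. Both are recharged by NADPH, which comes in part from the oxidative branch of the pentose phosphate pathway. The transcription factor NRF2, held in check by KEAP1, drives many of these genes through a promoter motif called the antioxidant response element, and its relative NRF1 acts on proteasome and antioxidant genes. Peroxiredoxins and glutathione peroxidases remove peroxides, and superoxide dismutases supply hydrogen peroxide from superoxide.

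The core of the antioxidant response element, TGACNNNGC on either strand, was looked for in RefSeq promoters (build GRCm38.p6), which run from 250 bases before to 50 bases after each start site. Windows were found for 33 of the 37 members (not for Gsr, Gclc, Prdx6 and Msra), and 9 of these genes held a match. Of the 48 member windows 18.8% held a match, against 12.4% of all 32851 windows of this length. By gene, the shares were 27.3% of the members with a window and 14% of all 27025 genes. The matches are shown because this motif links NRF2 to its textbook targets. Each is printed 5′ to 3′ on the gene's own strand, with the match in capitals.
Gclm (chr3:122245413-122245441, plus strand, before the start site): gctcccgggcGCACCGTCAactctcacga
Prdx1 (chr4:116685456-116685484, plus strand, before the start site): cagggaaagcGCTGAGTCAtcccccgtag
Msrb2 (chr2:19371665-19371685, plus strand, after the start site): cccgttggtgGCAGCGTCAtg
Txnrd1 (chr10:82859104-82859132, plus strand, before the start site): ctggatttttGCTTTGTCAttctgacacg
Nfe2l2 (chr2:75704885-75704913, minus strand, before the start site): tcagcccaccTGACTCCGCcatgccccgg
G6pdx (chrX:74428919-74428947, minus strand, before the start site): aggcgggtcaGCTCAGTCAaagcacacgc
Sod1 (chr16:90220696-90220724, plus strand, before the start site): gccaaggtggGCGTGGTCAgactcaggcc
Srxn1 (chr2:152105542-152105570, plus strand, after the start site): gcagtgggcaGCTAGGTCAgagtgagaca
Pgd (chr4:149166061-149166089, minus strand, after the start site): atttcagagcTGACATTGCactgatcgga
Gclm, Prdx1 and Msrb2 fell in Acss2-KO, as described below, and the other 6 genes did not pass the test. The longer context is given for the 2 genes that fell and had a match before the start site, as the 250 bases that precede it.
Gclm (chr3:122245307-122245556, plus strand): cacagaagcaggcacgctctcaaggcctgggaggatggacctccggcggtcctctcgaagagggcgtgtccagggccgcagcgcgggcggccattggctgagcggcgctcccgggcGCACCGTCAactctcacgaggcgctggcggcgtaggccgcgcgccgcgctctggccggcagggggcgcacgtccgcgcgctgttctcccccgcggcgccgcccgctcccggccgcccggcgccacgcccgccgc
Prdx1 (chr4:116685349-116685598, plus strand): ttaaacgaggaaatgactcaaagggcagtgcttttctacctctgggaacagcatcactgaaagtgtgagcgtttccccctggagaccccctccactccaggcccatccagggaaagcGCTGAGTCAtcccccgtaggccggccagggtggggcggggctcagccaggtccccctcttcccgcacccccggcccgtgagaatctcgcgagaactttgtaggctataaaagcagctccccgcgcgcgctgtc
Of the genes that fell, 3 of 11 with a window held a match, as did 6 of 17 that did not pass the test and 0 of 2 that rose. The Prdx1 match contains TGAGTCA, the motif of AP-1 factors. A match is a description of these letters and not of a site in use.

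The targeted gene matched the labels in each library. Acss2 was measured at 74.0, 81.0 and 73.5 CPM (reads per 1000000 reads) in WT and at 1.37, 3.56 and 2.35 CPM in Acss2-KO. Estimated depth was between 21.8 and 30.8 (in units of 1000000 reads) per library. Acss2-KO libraries had lower summed CPM than WT libraries for erythroid markers (5 of 10 in the table, 162 to 280.5 CPM in WT and 41.2 to 67.0 CPM in Acss2-KO), macrophage markers (12 of 12, 264 to 771 and 145 to 232 CPM) and pericentral hepatocyte markers (9 of 9, 14440.5 to 19963 and 6751 to 10512 CPM). No marker in these lists was at 0 in all 6 libraries. Markers of hepatocytes as a whole overlapped (99194 to 118626 and 111696 to 125010.0 CPM), as did endothelial (8 of 8, 295 to 437 and 326 to 412 CPM) and stellate cell markers (9 of 9, 247 to 398 and 213 to 371 CPM). Periportal hepatocyte markers had higher sums in Acss2-KO (11 of 11 in the table, 74451 to 90958 and 99983 to 108444 CPM). Of these 11, 6 were higher and 1 lower in the limma test described below, and Alb is also in the hepatocyte list. By the same test 5 of 5 tested erythroid, 4 of 11 macrophage and 6 of 7 pericentral markers were lower and none higher. Among hepatocyte markers 3 of 10 were lower and 1 higher. For endothelial markers 2 of 8 were lower and 1 higher, and for stellate cell markers 2 of 8 were lower and none higher. Of all tested genes 23.1% were lower and 13.4% higher. Other leukocyte markers had lower sums (6 of 10, 15.1 to 39.0 and 7.92 to 11.0 CPM). Of 6 cholangiocyte markers 2 were in the table and went opposite ways: Spp1 was at 30.9 ± 1.70 CPM in WT and 6.55 ± 0.4 CPM in Acss2-KO, and Sox9 at 3.22 ± 1.10 and 9.52 ± 2.19 CPM (summed, 32.2 to 37.2 and 14.0 to 17.3 CPM). The part of these cell types in the results below was not tested.

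The antioxidant genes were on balance lower in Acss2-KO, led by Nqo2, Gpx1 and Nfe2l1, while Txnip, Glrx and Gsr were higher. Of the 35 members found, 34 reached a mean of 5 CPM and were tested, with limma on log2(CPM + 1) across all 9355 such genes and Benjamini-Hochberg adjustment. At an adjusted p under 0.05, 13 members fell (38.2% of those tested), against a background of 23.1% of all tested genes. The 3 that rose are 8.82% of those tested, against 13.4% of all tested genes. The median log2 fold change was -0.39 over the tested members and -0.12 over all tested genes, and 27 of the 34 were below 0. All 3 Acss2-KO libraries were below all 3 WT libraries for 17 members (32.8% of all tested genes) and above them for 3 (20.1% of all tested genes).

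With the libraries rescaled so that the median of all genes lay near 0, 9 members fell and the same 3 rose. The median over the members was then -0.26 with median-of-ratios scaling (0.01 over all genes), -0.32 with upper-quartile scaling (-0.05) and -0.26 with trimmed-mean scaling (0.01). Over all tested genes, there were 1252 calls higher and 2161 lower on CPM, 1754 and 1669 with median-of-ratios, 1584 and 1847 with upper-quartile and 1761 and 1658 with trimmed-mean scaling. Leaving out a library moved the counts of members. Falls numbered 8 with WT1, WT2, WT3 or KO1 left out, and 7 with KO3 left out. Over all tested genes they numbered 1302, 1345, 1955, 1614 and 1239, in that order, beside 2161 with every library kept. Rises numbered 1 with WT1 left out, 5 with KO1 left out, and 0 with WT2 or KO3 left out. Over all tested genes they numbered 846, 801, 780 and 519, in that order, beside 1252 with every library kept. The 7 that passed without each library in turn were Nqo2, Gpx1, Nfe2l1, Msrb2, Prdx4, Prdx6 and Gclm. In the authors' deposited table, 6 members have an adjusted p under 0.05: Txnip and Glrx with a positive and Nqo2, Gpx1, Nfe2l1 and Prdx4 with a negative log2 fold change. Over all 12366 genes of the authors' deposited table, 12.5% pass with a positive and 14.7% with a negative value. The members, at 2 positive and 4 negative of 35, lie below both shares. By these calls, the excess of falls among members over all genes was not seen in the authors' comparison. Its shares also cover genes under the 5 CPM minimum, which the shares from limma leave out.

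**Figure D1:**
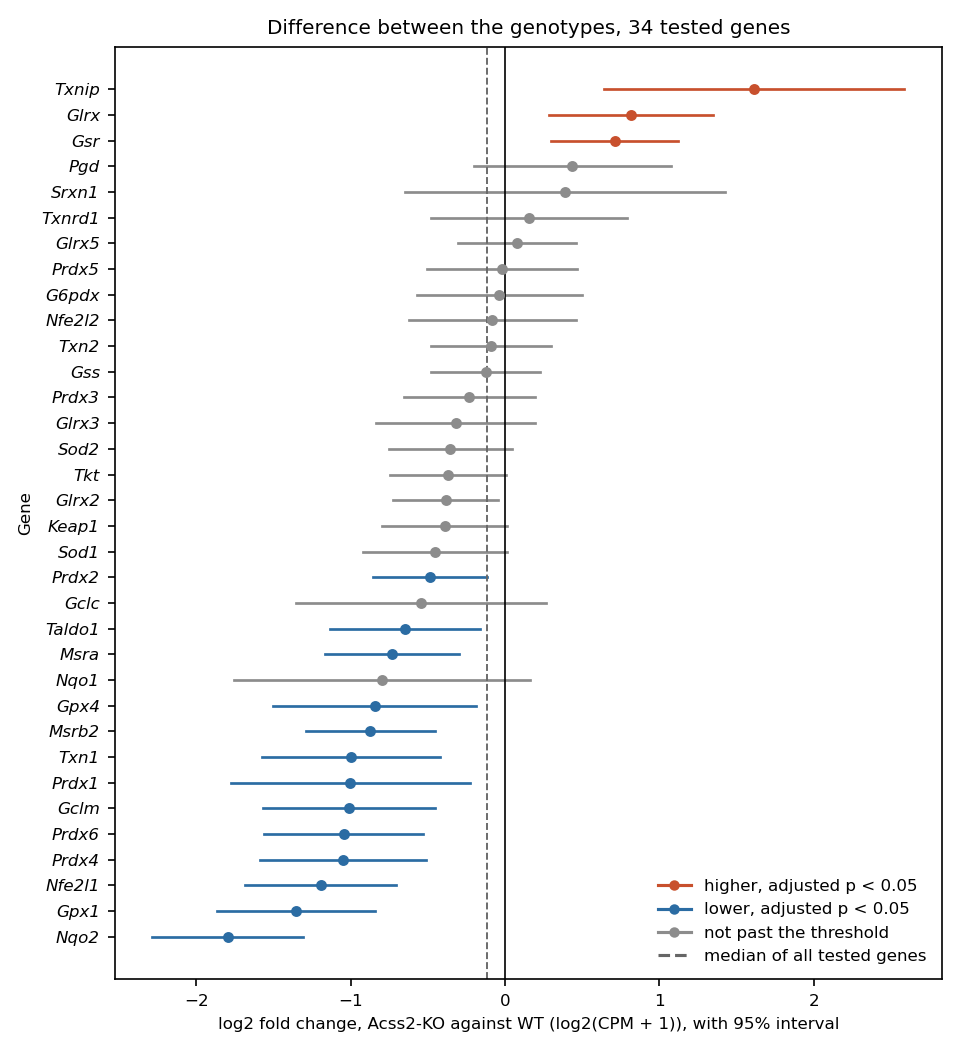
Log2 fold change (Acss2-KO against WT, on log2(CPM + 1)) with its 95% interval for the 34 tested genes, ordered by size; the dashed line is the median of all tested genes, -0.12. Of the 34, 13 fell, from Nqo2 at -1.80 to Prdx2 at -0.49, and Txnip, Glrx and Gsr rose.

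Of the sensing genes, Nfe2l1 fell while Nfe2l2 and Keap1 did not pass the test. Nfe2l1, which encodes the NRF1 factor (ENSMUSG00000038615, chromosome 11, 96817414 to 96829968), stood at 215, 208 and 133 CPM in WT and at 76.6, 77.7 and 82.1 CPM in Acss2-KO. The groups did not overlap, and the Acss2-KO libraries lay close together while WT3 was well below the other WT libraries. The mean went from 186 ± 45.3 to 78.8 ± 2.92 CPM (SD, n = 3), 2.29-fold lower (-1.19 on the log2 scale, SE 0.22, limma adjusted p = 0.0043). Nfe2l2, which encodes NRF2, was at 95, 85.6 and 62.7 CPM in WT and at 93.7, 56.5 and 81.0 CPM in Acss2-KO. Those groups overlapped over most of their range (log2 fold change -0.08, 95% interval -0.62 to 0.46), and the sign turned with median-of-ratios (0.05) and trimmed-mean scaling (0.05). Keap1, the adaptor that sends NRF2 for degradation, had a mean of 46.2 ± 5.43 CPM in WT and 35.1 ± 5.32 CPM in Acss2-KO (log2 fold change -0.39, limma adjusted p = 0.12).

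In glutathione synthesis the modifier subunit Gclm fell and the reductase Gsr rose. Gclm, which with the catalytic subunit Gclc forms the rate-limiting ligase (ENSMUSG00000028124, chromosome 3, 122245557 to 122270732), was at 201, 219.8 and 187 CPM in WT and at 69.1, 132 and 109 CPM in Acss2-KO. Every Acss2-KO library was below every WT library (log2 fold change -1.01, SE 0.25, limma adjusted p = 0.014). Its deposited span overlaps that of the gene model Gm17494 over 14775 bp, which was listed at 0 in all WT libraries and at 4.06, 2.81 and 4.11 CPM in Acss2-KO. Gclc was at 352, 359.5 and 251 CPM in WT and at 122, 242 and 345 CPM in Acss2-KO. KO3 lay among the WT libraries and KO1 far below them, and the difference did not pass (-0.54, 95% interval -1.35 to 0.27). Gsr, which returns oxidised glutathione to its reduced form (ENSMUSG00000031584, chromosome 8, 33652523 to 33698163), was at 82.7, 81.0 and 78.8 CPM in WT and at 109.9, 138 and 154 CPM in Acss2-KO. The WT libraries were nearly equal and all 3 Acss2-KO libraries were above them (1.64-fold, log2 fold change 0.71, SE 0.18, limma adjusted p = 0.017). The Gsr call ended with WT1 left out (adjusted p = 0.053), WT2 (0.055) or KO3 (0.084).

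Gss, the glutathione synthetase, is the neighbour of the deleted gene. Its deposited span (chromosome 2, 155563181 to 155592810) overlaps that of Acss2 over 22544 bp. Gss was at 79.3, 75.1 and 82.7 CPM in WT and at 72.5, 67.2 and 77.7 CPM in Acss2-KO, while Acss2 itself was 23.3-fold lower. The groups overlapped (log2 fold change -0.12, 95% interval -0.48 to 0.23). The sign turned with median-of-ratios (0.0049) and trimmed-mean scaling (0.0081). The rule for assigning reads in the shared stretch was not given in the sources used here.

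Both glutathione peroxidases that reached the level for testing fell. Gpx1, the abundant cytosolic selenoenzyme (ENSMUSG00000063856, chromosome 9, 108338903 to 108340343), was at 1710.3, 1675 and 1710.3 CPM in WT and at 534, 873 and 630.3 CPM in Acss2-KO. The WT libraries differed by little and no Acss2-KO library came near them (2.55-fold lower, log2 fold change -1.35, SE 0.23, limma adjusted p = 0.0034). Gpx4, the selenoenzyme that reduces lipid hydroperoxides in membranes (ENSMUSG00000075706, chromosome 10, 80047166 to 80056439), was at 324, 333 and 605 CPM in WT and at 177, 282 and 224 CPM in Acss2-KO. WT3 stood above the rest, and the call was at the edge of the threshold (-0.84, SE 0.29, limma adjusted p = 0.048). Leaving out any library except KO2 ended the Gpx4 call: adjusted p was 0.057, 0.060 and 0.10 without WT1, WT2 and WT3, and 0.13 without KO1 or KO3. It was also lost with the 3 rescalings (0.093 to 0.097), with a minimum of 20 CPM (0.054) and with plain empirical Bayes (0.051). Gpx6 was at 1.67, 1.56 and 1.16 CPM in WT and at 3.03 CPM in KO1, and was listed at 0 in the other two Acss2-KO libraries, below the level for testing.

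The quinone reductase genes differed in spread. Nqo2, a flavoenzyme that reduces quinones with dihydronicotinamide riboside (ENSMUSG00000046949, chromosome 13, 33964659 to 33988465), was at 65.3, 61.4 and 79.9 CPM in WT and at 15.1, 25.6 and 17.6 CPM in Acss2-KO. It had the lowest log2 fold change of the tested members (-1.80, SE 0.22, 3.47-fold lower, limma adjusted p = 0.00093). Its deposited span lies within that of Serpinb6a, which was at 17.3 ± 3.99 CPM in WT and 19.8 ± 9.89 CPM in Acss2-KO and did not pass (log2 fold change 0.10). Nqo1, the NADPH-dependent enzyme often used to read NRF2 activity, was at 14.6, 18.4 and 23.4 CPM in WT and at 4.99, 19.2 and 10.7 CPM in Acss2-KO. The Acss2-KO libraries ranged from below all WT libraries to within them, and Nqo1 did not pass (-0.80, 95% interval -1.75 to 0.16, limma adjusted p = 0.17). It passed without KO2 (-1.22, adjusted p = 0.013).

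**Figure D2:**
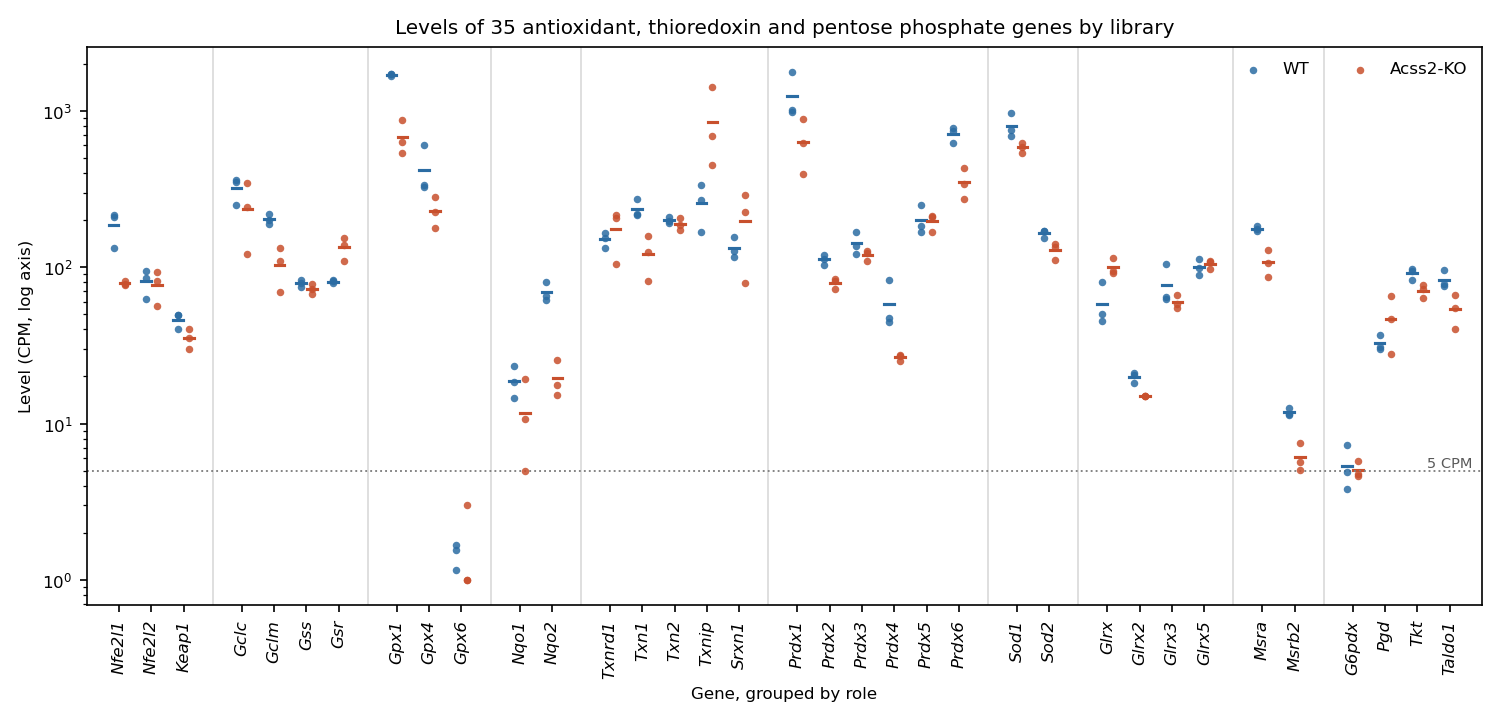
Level of each of the 35 genes in the table (CPM, log axis) in the 3 WT and 3 Acss2-KO libraries; points are libraries, short bars are group means (none for Gpx6, which is listed at 0 in 2 libraries and drawn there at the floor of 1 CPM), and the dotted line is the 5 CPM minimum, set on the mean of all 6 libraries. The 3 Gpx1 points of WT lie together near 1699 CPM, above the Acss2-KO points at 534 to 873 CPM.

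In the thioredoxin system the inhibitor rose while cytosolic thioredoxin fell. Txnip, an arrestin-like protein that binds thioredoxin and limits glucose uptake (ENSMUSG00000038393, chromosome 3, 96557957 to 96561883), was at 333, 169 and 267 CPM in WT and at 1409, 449 and 689.8 CPM in Acss2-KO. All 3 Acss2-KO libraries were above WT and differed widely among themselves (256 ± 82.6 and 849 ± 499 CPM, 3.07-fold, log2 fold change 1.62, SE 0.42, limma adjusted p = 0.020). The Txnip call ended with WT2 left out (adjusted p = 0.064), WT3 (0.063) or KO3 (0.057). Txnip lies within the deposited span of the gene model Gm15441, which was at 53.4, 21.1 and 41.9 CPM in WT and at 32.2, 151 and 101 CPM in Acss2-KO (log2 fold change 1.11, limma adjusted p = 0.21). Among the Acss2-KO libraries the order of Gm15441 was the opposite of that of Txnip. Reads of overlapping genes can be shared, since the sources used here do not say whether counting used strand.

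Txn1, cytosolic thioredoxin (ENSMUSG00000028367, chromosome 4, 57943373 to 57956411), was at 217, 219.8 and 274 CPM in WT and at 82.1, 158 and 125 CPM in Acss2-KO. The groups did not overlap (log2 fold change -1.0, SE 0.25, limma adjusted p = 0.017); its call was lost without WT3 (0.061) or KO3 (0.053). Its mitochondrial counterpart Txn2 was at 199 ± 7.91 CPM in WT and 187 ± 16.5 CPM in Acss2-KO (-0.09, 95% interval -0.48 to 0.30), and turned sign with median-of-ratios (0.04) and trimmed-mean scaling (0.04). Txnrd1, the selenoenzyme that reduces Txn1, was at 164, 154 and 133 CPM in WT and at 105, 205 and 215 CPM in Acss2-KO. KO1 was below WT, and KO2 and KO3 were above it (0.16, 95% interval -0.48 to 0.79). Srxn1, which repairs overoxidised peroxiredoxins, was at 115, 127 and 155 CPM in WT and at 78.8, 224 and 290.0 CPM in Acss2-KO. It had the same split as Txnrd1 and did not pass (0.39, limma adjusted p = 0.52), but passed without KO1 (0.95, adjusted p = 0.017).

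Of the 6 peroxiredoxin genes, 4 fell: Prdx6, Prdx4, Prdx1 and Prdx2. Prdx6, the 1-Cys enzyme that also acts on phospholipids (ENSMUSG00000026701, chromosome 1, 161240112 to 161251219), was at 771, 744 and 617 CPM in WT and at 272, 434 and 340.1 CPM in Acss2-KO. Prdx4, the peroxiredoxin of the endoplasmic reticulum (ENSMUSG00000025289, chromosome X, 155323918 to 155340754), was at 44.6, 47.5 and 82.7 CPM in WT and at 25.1, 27.5 and 27.1 CPM in Acss2-KO. Neither overlapped between the genotypes. Log2 fold changes were -1.04 (SE 0.23, limma adjusted p = 0.0089) for Prdx6 and -1.05 (SE 0.24, limma adjusted p = 0.010) for Prdx4.

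Prdx1, an abundant cytosolic enzyme (chromosome 4, 116685544 to 116700822), was at 976, 1009.9 and 1758 CPM in WT and at 393, 885 and 617 CPM in Acss2-KO. The nearest libraries of the 2 genotypes were close, and the call was marginal (-1.0, SE 0.34, limma adjusted p = 0.047). Prdx2, the other cytosolic 2-Cys enzyme and one abundant in red cells (chromosome 8, 84969587 to 84974834), was at 112, 104 and 120.3 CPM in WT and at 72.5, 82.1 and 84.4 CPM in Acss2-KO (-0.49, SE 0.16, limma adjusted p = 0.044). Erythroid markers were lower in the same libraries: Hbb-bs was at 119 ± 38.1 CPM in WT and 30.1 ± 7.09 CPM in Acss2-KO, and Alas2 at 50.4 ± 8.96 and 7.69 ± 2.81 CPM. Their part in the Prdx2 and Gpx1 values was not tested. The Prdx1 call ended with WT1 left out (adjusted p = 0.064), WT2 (0.067), WT3 (0.15), KO1 (0.13) or KO3 (0.12). That of Prdx2 was lost without any of the 6 libraries in turn (0.055 to 0.12), and both were lost with the 3 rescalings (0.076 to 0.11).

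The mitochondrial Prdx3 (142 ± 24.1 and 120.2 ± 9.11 CPM) and Prdx5, found in mitochondria, peroxisomes and cytosol (201 ± 44.1 and 196 ± 25.6 CPM), did not pass. Their 95% intervals were -0.65 to 0.19 and -0.51 to 0.47, and the sign of Prdx5 (-0.02) turned when CPM were rescaled by median-of-ratios (0.11), by the upper quartile (0.05) or by a trimmed mean (0.11). Sod1, the copper-zinc dismutase of the cytosol, was at 755, 689.8 and 969 CPM in WT and at 534, 626 and 588 CPM in Acss2-KO. Sod2, the manganese enzyme of mitochondria, was at 170.1, 170.1 and 154 CPM and at 111, 141 and 135 CPM. For both dismutases every Acss2-KO library was below every WT library, yet neither passed (log2 fold changes -0.45 and -0.35, limma adjusted p = 0.12 and 0.14).

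Among the glutaredoxins, Glrx rose and the other three did not pass. Glrx, the cytosolic enzyme that removes glutathione from protein thiols (ENSMUSG00000021591, chromosome 13, 75839868 to 75850151), was at 49.9, 44.9 and 80.4 CPM in WT and at 92.4, 115 and 95 CPM in Acss2-KO. The groups did not overlap, with WT3 nearest to Acss2-KO (1.76-fold, log2 fold change 0.81, SE 0.24, limma adjusted p = 0.026). The Glrx call was lost without WT1 (0.089), WT2 (0.095), KO2 (0.052) or KO3 (0.072). The mitochondrial Glrx2 was at 18.3, 20.5 and 21 CPM in WT and at 15, 15 and 14.9 CPM in Acss2-KO, below WT in each library without passing (-0.38, limma adjusted p = 0.073). Glrx3 and Glrx5, which act in iron-sulfur cluster supply, had log2 fold changes of -0.32 (95% interval -0.83 to 0.19) and 0.08 (-0.30 to 0.46).

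Both methionine sulfoxide reductases fell. Msra, which repairs the S form of oxidised methionine (ENSMUSG00000054733, chromosome 14, 64122623 to 64455903), was at 175, 184 and 171 CPM in WT and at 86.8, 128 and 107 CPM in Acss2-KO (log2 fold change -0.73, SE 0.19, limma adjusted p = 0.019). Msrb2, the mitochondrial enzyme for the R form (ENSMUSG00000023094, chromosome 2, 19371440 to 19394976), was at 11.3, 11.6 and 12.6 CPM in WT and at 5.70, 7.52 and 5.03 CPM in Acss2-KO (-0.87, SE 0.18, limma adjusted p = 0.0078). The groups did not overlap for either gene, and in both the WT libraries were the tighter group. The Msra call was lost without WT1 (0.058), WT2 (0.064), KO1 (0.053) or KO3 (0.071).

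In the pentose phosphate pathway Taldo1 of the non-oxidative branch fell, and the dehydrogenases of the oxidative branch did not pass. Taldo1, transaldolase (ENSMUSG00000025503, chromosome 7, 141392199 to 141402968), was at 78.2, 95.7 and 76.1 CPM in WT and at 39.9, 66.7 and 54.6 CPM in Acss2-KO (log2 fold change -0.65, SE 0.22, limma adjusted p = 0.044). Its call was lost without any library except KO2 (0.072 to 0.14), with the 3 rescalings (0.067 to 0.085) and with plain empirical Bayes (0.0502). Tkt, transketolase, was at 94.4, 97.7 and 82.7 CPM in WT and at 63.6, 76.6 and 72.0 CPM in Acss2-KO, without overlap and without passing (-0.37, limma adjusted p = 0.11).

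G6pdx, the glucose-6-phosphate dehydrogenase that opens the pathway, was at 3.81, 7.31 and 4.89 CPM in WT and at 4.76, 4.59 and 5.78 CPM in Acss2-KO. Its groups overlapped (-0.04, 95% interval -0.57 to 0.50), its sign turned when rescaled by median-of-ratios (0.07), by the upper quartile (0.02) or by a trimmed mean (0.08), and its deposited span lies within that of Ikbkg, so its reads may be shared. Pgd, the second NADPH-producing dehydrogenase, was at 29.9, 37 and 30.7 CPM in WT and at 27.9, 46.9 and 65.8 CPM in Acss2-KO. KO1 was below all WT libraries and the other two above them (0.44, limma adjusted p = 0.25), and Pgd passed without KO1 (0.76, adjusted p = 0.031).

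The Acss2-KO libraries differed widely from each other in several textbook NRF2 targets. KO1 was the lowest of the Acss2-KO libraries for 28 of the 34 tested members, against 42.8% of all tested genes. Its median difference from the WT mean was -0.59 over the members and -0.14 over all tested genes, on the log2(CPM + 1) scale. For KO2 and KO3 the medians were -0.33 and -0.36 over the members, and -0.14 and -0.07 over all tested genes. In Srxn1, Txnrd1 and Pgd, KO1 lay below all WT libraries while KO2 and KO3 lay above all of them. Nqo1 and Gclc were likewise lowest in KO1, and for them the log2 fold change went from -0.80 to -0.34 and from -0.54 to -0.13 without it. Txnip went the other way and was highest in KO1. Nfe2l2 was also highest in KO1, at 93.7 CPM against 56.5 and 81.0 CPM in KO2 and KO3.

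**Figure D3:**
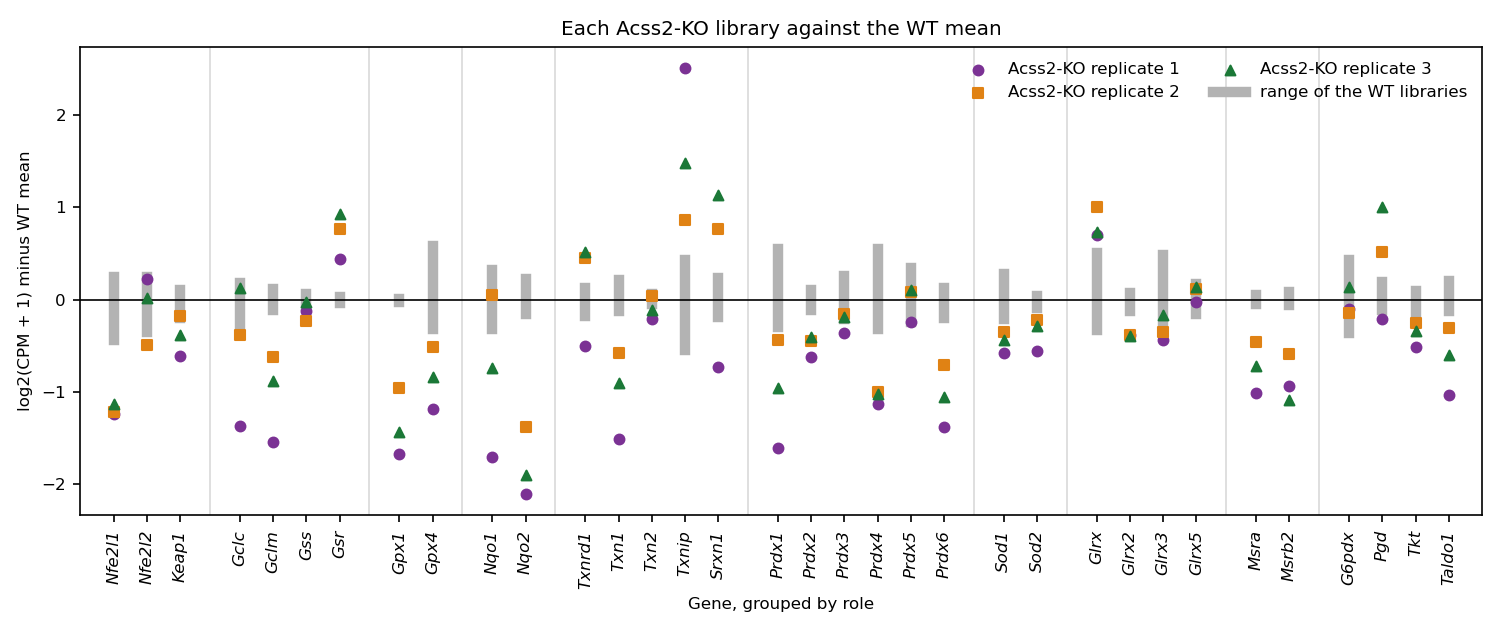
Difference of each Acss2-KO library from the WT mean (log2(CPM + 1)) for the 34 tested genes grouped by role; symbols are the 3 Acss2-KO libraries and grey bars the range of the WT libraries. KO1 is the lowest Acss2-KO library for 28 genes and the highest for Txnip and Nfe2l2. Nfe2l1, Prdx4 and Glrx2 show nearly equal values in all 3.

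Genes of the same systems outside the members were called lower more often than higher on CPM, as were all tested genes. Over 9 lists of other antioxidant, selenium and NADPH genes, 103 of 115 entries were in the table and 92 genes were tested. Of these 25 fell (27.2%) and 9 rose (9.78%), with a median log2 fold change of -0.45, beside the 23.1% and 13.4% of all tested genes. With each of the 3 rescalings 20 fell and 11 rose, and the median lay between -0.38 and -0.32. Over all tested genes, median-of-ratios scaling gave 1669 lower and 1754 higher. Upper-quartile scaling gave 1847 and 1584, and trimmed-mean scaling 1658 and 1761. At an unadjusted p under 0.05, 29.5% of all tested genes were lower and 18.2% higher, the shares to set beside the unadjusted counts below. Among 16 tested genes of selenium handling and other selenoproteins 6 fell and none rose by limma (9 lower and 1 higher at an unadjusted p under 0.05). Falls numbered 3 without WT2 or KO3, and the 3 rescalings gave 5 falls and 1 rise. Sepsecs, which makes selenocysteine on its tRNA, went from 74.2 ± 6.15 to 38.7 ± 5.2 CPM (-0.93, SE 0.17, limma adjusted p = 0.0044). Scly, which frees selenium from selenocysteine, fell as well (-1.04, SE 0.23), and so did the selenoenzyme Dio1, a deiodinase (-1.90, SE 0.39). The 2 other methionine sulfoxide reductases went opposite ways: the selenoenzyme Msrb1 fell from 290.4 ± 19.3 to 82.8 ± 31.8 CPM (-1.87, SE 0.27), and Msrb3 rose from 12.3 ± 1.78 to 26.9 ± 5.19 CPM (1.06, SE 0.19).

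Of 7 other peroxide enzymes 3 fell and 2 rose. Falls numbered 1 without WT1, WT2, KO1 or KO3, and rises 1 without KO3. Gpx3, the secreted glutathione peroxidase, was at 5.54, 7.94 and 9.85 CPM in WT and at 57.7, 22.2 and 41.1 CPM in Acss2-KO, opposite in direction to Gpx1 (log2 fold change 2.16, SE 0.34, limma adjusted p = 0.0030). Pon1, the HDL-borne paraoxonase, fell from 1344 ± 297 to 497 ± 139.9 CPM. Of 13 other NRF2 targets and heme-breakdown genes 3 fell and none rose by limma, a share equal to the 23.1% of all tested genes (4 lower and 1 higher at an unadjusted p under 0.05, beside 29.5% and 18.2%). The 3 were Blvrb, a biliverdin reductase (-1.18, SE 0.32, limma adjusted p = 0.020), Mgst1, a membrane-bound glutathione transferase (-0.94, SE 0.27, adjusted p = 0.025), and Abcc2, a canalicular export pump (-0.95, SE 0.32, adjusted p = 0.046). The Mgst1 and Abcc2 calls were lost with each of the 3 rescalings (0.052 to 0.072), and that of Blvrb without WT3 (0.086) or KO3 (0.051). Falls in this list numbered 1 without WT2, WT3 or KO1, 6 without KO2 and 0 without KO3, and rises 1 without WT2.

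Of 10 other sensing genes 2 rose and 1 fell, beside 13.4% and 23.1% of all tested genes. The small Maf partner Mafk rose from 19.3 ± 1.28 to 38.9 ± 4.85 CPM (0.97, SE 0.16). Cul3, the scaffold of the KEAP1 ubiquitin ligase, was the other riser (0.62, SE 0.19, limma adjusted p = 0.036), and its call was lost without any library except KO2 (0.068 to 0.14). The call of Maff, a further small Maf gene, which was lower (-1.19, SE 0.30, limma adjusted p = 0.015), was lost without WT1 (0.055); 2 genes fell without WT3 or KO2. Of 9 glutathione turnover genes 4 fell and 1 rose. Among the 4 were Chac2 (-2.71, SE 0.24, limma adjusted p = 0.00027) and the glyoxalases Glo1 (-1.47, SE 0.29) and Hagh (-1.18, SE 0.21). Chac2 was not tested with the 20 CPM minimum, and its fall may not be independent of the 5 CPM minimum. Rises in the turnover list numbered 2 with each rescaling and 0 without KO3.

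Of 18 other thioredoxin-fold genes and relatives 2 fell and 2 rose, including Txndc15, which fell (-0.89, SE 0.19), and Tmx4, which rose (1.28, SE 0.29). The Tmx4 call was lost without WT3 (0.053). Rises in this list numbered 1 without WT1, WT2 or KO3, 0 without WT3 and 4 without KO2, and falls 1 without WT2 or KO3. Of 9 other pentose phosphate genes 3 fell and 1 rose, with 1 fall without WT2 or KO3. Prps2, which makes the nucleotide precursor PRPP from ribose 5-phosphate, fell from 14.4 ± 0.35 to 4.36 ± 1.11 CPM (-1.54, SE 0.20), the latter under the 5 CPM minimum. The gene deposited as Pgm1 rose (1.25, SE 0.22). Its log2 fold change was 1.44 with nothing added to CPM before the log and 0.83 with 5 CPM added, so its level was low. Pgm1 was not tested with the 20 CPM minimum. It may have reached the 5 CPM minimum only through the Acss2-KO libraries, so its rise may not be independent of the filter. Some deposited symbols are older ones, and which current gene Pgm1 stands for was not checked. Of 8 other NADPH genes 2 fell and none rose by limma (4 lower and 0 higher at an unadjusted p under 0.05), a share close to the 23.1% of all tested genes. The mitochondrial NAD kinase Nadk2 went from 161 ± 10.1 to 66.8 ± 17.5 CPM (-1.29, SE 0.22). Idh1, the cytosolic isocitrate dehydrogenase, was the other (-1.83, SE 0.44, limma adjusted p = 0.017), and its call was lost without WT2 (0.057), WT3 (0.062) or KO3 (0.054), which left 1 fall. Without KO2 the falls numbered 5.

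Superoxide-producing genes, which make oxidants, were kept out of the total above. Of 6 tested, 4 fell and none rose by limma (4 lower and 0 higher at an unadjusted p under 0.05). Of all tested genes, 23.1% were lower and 13.4% higher by limma, and 29.5% and 18.2% at the unadjusted p. Falls numbered 0 without WT2, where 4 genes were tested, and 1 without KO1 or KO3. Over all tested genes falls numbered 1345 without WT2, 1614 without KO1 and 1239 without KO3, beside 2161 with every library kept. Aox3, an aldehyde oxidase, was at 362, 355 and 190.0 CPM in WT and at 11.1, 68.1 and 19.7 CPM in Acss2-KO (-3.49, SE 0.67, limma adjusted p = 0.012); its call was lost without WT1 (0.059) or WT2 (0.063). Xdh, xanthine dehydrogenase, had means of 183 ± 41.7 and 104 ± 9.60 CPM (-0.79, SE 0.21, limma adjusted p = 0.021) and lost its call without WT1, WT2, KO1 or KO3 (0.053 to 0.082). The others that fell, Rac2 and Cyba (the latter named after its values were seen), encode parts of the phagocyte oxidase. Rac2 (7.37 ± 4.12 and 2.71 ± 0.189 CPM, -1.07, SE 0.31, limma adjusted p = 0.026) lost its call without KO1 (0.056) or KO3 (0.070). It was not tested with the 3 rescalings or without WT2, being under the 5 CPM minimum. Its mean reached that minimum only through the WT libraries, so its fall is not independent of the filter. Macrophage markers had lower sums in Acss2-KO as given above, and the part of those cells in these falls was not tested.

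**Figure D4:**
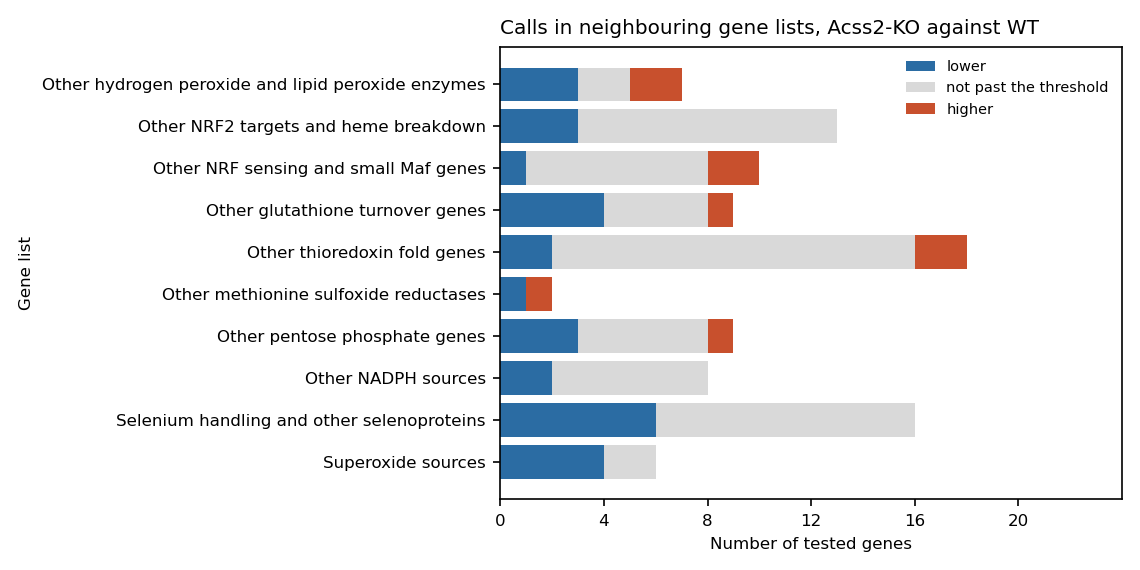
Number of tested genes in each of the 10 lists (the 9 in the total and the superoxide list) that fell, rose or did not pass the limma test at an adjusted p of 0.05 (Acss2-KO against WT). The selenium list shows 6 falls among 16 genes with none higher, and the thioredoxin-fold list 2 falls and 2 rises among 18.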

How the data were processed

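The authors deposited, per the file headers, 1 table with a column per library, matched to samples by the sample descriptions. Its per-library values are log2 CPM: 2 to the power of each deposited column sums to nearly 1000000, values have 2 decimals, and values under 1 CPM are listed at 0. The same deposited table holds the authors' log2 fold changes and p-values, from a tool not given in the sources used here. The submitters' processing notes list Bowtie 0.12.2 and mm8 without a role. Coordinates are taken as GRCm38, since over 11623 genes the median distance of deposited starts from RefSeq GRCm38.p6 starts was 8 bp. Steps between low values gave a rough estimate of depth (5 CPM is about 109 to 154 reads). The mean distance of these values from whole reads was 0.254 to 0.451 of that expected at random. No count model was used, because rounded logs do not give back whole reads.

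Listed 0 was set to 1 CPM. A mean of 5 CPM was required for testing, on log2(CPM + 1), which understates changes of low genes, with limma 3.58.1 (eBayes, trend and robust set; statmod 1.5.0; R 4.3.3). Fits had no covariates, used Benjamini-Hochberg adjustment over 9355 genes, and a threshold of 0.05. The procedure was run on simulated libraries with the same dispersion for all genes and few changed genes, in random directions. That setting is simpler than these data, so the run does not give the error rate here. Errors are SD (n = 3) for means and SE for log2 fold changes. Members, lists and tests were chosen with earlier results of these data known. Named genes are Acss2, the members, and up to 3 genes with the smallest p of each neighbouring list, not all of which are named, and for marker lists up to 3 of the highest mean level, of which only erythroid and cholangiocyte genes are named. Alternatives were pseudocounts, scalings, filters, the variance model, the threshold, left-out libraries and the replicate number as a block. Of 209 list entries 184 were matched, 11 by a RefSeq synonym.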

Additional observations from a re-analysis of the deposited data

How the results depend on the processing

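The direction of the 16 called members held under each of the 18 alternatives that tested them. Msrb2, which lies under the 20 CPM minimum, was tested in 17. Only the 3 rescalings could have turned a direction. In each called member all Acss2-KO libraries lay above, or all below, all WT libraries. Leaving out libraries or changing the pseudocount therefore could not turn it. The filters, variance model, block and threshold left the size of each change as it was. Under the 3 rescalings 12 of the 16 calls passed. When a library was left out, between 0 and 5 members were called higher and between 7 and 13 lower; of all tested genes, between 519 and 1608 were higher and between 1239 and 2420 lower. The median over the members then ranged from -0.46 to -0.29. Leaving out WT2 together with KO1, an alternative chosen after seeing the data, gave 5 members lower (Gclm, Gpx4, Txn1, Prdx1, Prdx2, Prdx6, Msra and Taldo1 lost their calls, adjusted p = 0.058 to 0.39), 4 higher (Glrx lost at 0.078, Srxn1 and Pgd gained at 0.027 and 0.024), and 715 higher and 1319 lower over all tested genes. At a threshold of 0.01, 0 members were higher and 5 lower, and all tested genes were 505 higher and 991 lower. With a minimum of 20 CPM, 741 genes were higher and 1112 lower, from fewer genes tested.

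Signs of log2 fold changes turned in 6 uncalled members. With median-of-ratios scaling the values were 0.048 for Nfe2l2, 0.0049 for Gss, 0.042 for Txn2, 0.111 for Prdx5 and 0.073 for G6pdx. With trimmed-mean scaling they were 0.051, 0.0081, 0.045, 0.114 and 0.075, and with the upper quartile 0.053 for Prdx5 and 0.023 for G6pdx. Leaving out a library gave ranges of -0.255 to 0.123 for Nfe2l2, -0.217 to 0.016 for G6pdx, -0.138 to 0.151 for Prdx5 and -0.026 to 0.486 for Txnrd1. Prdx5 was at 0.040 without WT2 and KO1. The cause was not tested. Same-numbered libraries did not deviate together (correlations -0.10, -0.14 and 0.09). A fit that took the replicate number as a block called 3 members higher and 13 lower: Nqo1 passed (adjusted p = 0.049) and Prdx2 did not (0.082).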
